A study of Mus musculus with 7 samples.

Results

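Eph receptors are receptor tyrosine kinases and ephrins are the membrane-bound ligands that activate them on neighbouring cells. Described here are 7 genes of this system named for sorting cells along the crypt: the receptors Ephb2, Ephb3, Ephb4 and Epha2 and the ligands Efna1, Efnb1 and Efnb2. They were found by symbol among the 52550 genes of the count files, and all 7 were among the 17449 genes with enough counts to test. RNA came from Paneth cells, antimicrobial cells that sit at the bottom of crypts in the small intestine, sorted by CD24 and side scatter from Lgr5-EGFP-IRES-CreERT2 mice of strain C57BL/6J in 7 libraries. The sort excluded TER119, CD31 and CD45, and CD117 was stained as well. In these mice a green fluorescent protein and an inducible Cre are driven by the Lgr5 stem cell gene, in both groups alike. No inducer of Cre is named in the labels. The 4 DSS libraries came from mice given 3% dextran sulfate sodium, which injures the gut epithelium, in drinking water for 7 days and killed 3 days after its removal. Of these mice DSS 1 was 12 weeks old and DSS 2 to DSS 4 were 10 weeks old. The 3 water libraries came from mice kept on water, of which water 1 and water 2 were 12 weeks old and water 3 was 10 weeks old. Nothing in the labels states that the libraries are different animals; p-values therefore cover only the variation seen among them.

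In the intestine, EphB receptors are highest in cells at the crypt base and ephrin-B ligands are highest towards the villus. Contact between a receptor-bearing and a ligand-bearing cell causes repulsion, which keeps the populations apart and holds Paneth cells at the base. Ephb2 and Ephb3 are known targets of beta-catenin and TCF in the crypt, and mice without Ephb3 have Paneth cells scattered along the crypt and villus. Ephrin-B ligands span the membrane and can signal into their own cell, while ephrin-A ligands such as the Efna1 product are held by a lipid anchor and mainly bind EphA receptors such as the Epha2 product.

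Total counts ran from 23175708 to 32451653 per library, and counts of the 7 genes from 140 to 7278. Levels are in CPM, counts scaled to library size, after TMM, edgeR's factors that set the bulk of genes equal between libraries. Paneth markers dominated every library, with a summed level of 10 genes between 251592 and 263603 CPM in water and between 122219 and 212757 CPM in DSS. The 9 listed stem cell markers, which crypt base neighbours of Paneth cells express, had sums from 4569 to 5467 CPM across water libraries and from 4435 to 5422 CPM across DSS libraries, mostly Olfm4 and Slc12a2. Within that list Lgr5 had means of 127 CPM in water and 78.5 CPM in DSS (log2 change -0.70, edgeR adjusted p = 0.247). Ascl2 and Axin2 were higher in every DSS library than in every water library, a pattern seen in 7.4% of all genes tested. The rest had log2 changes of -0.06 (Olfm4), 0.05 (Slc12a2), 0.09 (Smoc2), 0.02 (Cdca7), -0.19 (Rgmb) and 0.29 (Aqp4). In bulk samples, fewer cells of a type and less RNA per cell cannot be told apart. Each day of RNA isolation had libraries of 1 group, so day and treatment cannot be told apart. DSS 2 and DSS 3 were the only DSS libraries that shared a day. The header names carried the tag 6 in all water libraries and DSS 4, and the tag 8 in DSS 1 and DSS 3. DSS 2 was marked as merged. Only the tag 6 held both groups, and the labels do not say what the tag means.

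The upstream sequences of the 3 EphB receptors and of Epha2 are shown because Ephb2 and Ephb4 varied together over the libraries, Ephb3 did not vary with them, and Epha2 alone held a TCF match. Whether the letters bear on how these genes varied was not tested. Each run is the part from 250 to 51 bases before the RefSeq start (build GRCm38.p6), 200 bases long, written 5′ to 3′ on the gene's strand, with a match to a TCF motif in capitals. They lie at chr4:136836063-136836262 on the minus strand (Ephb2), chr16:21204545-21204744 on the plus strand (Ephb3), chr5:137349859-137350058 on the plus strand (Ephb4) and chr4:141300971-141301170 on the plus strand (Epha2).
Ephb2: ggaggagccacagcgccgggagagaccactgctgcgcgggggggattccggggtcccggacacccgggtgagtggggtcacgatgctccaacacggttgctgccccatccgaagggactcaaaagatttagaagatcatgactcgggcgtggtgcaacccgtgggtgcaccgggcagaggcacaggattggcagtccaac
Ephb3: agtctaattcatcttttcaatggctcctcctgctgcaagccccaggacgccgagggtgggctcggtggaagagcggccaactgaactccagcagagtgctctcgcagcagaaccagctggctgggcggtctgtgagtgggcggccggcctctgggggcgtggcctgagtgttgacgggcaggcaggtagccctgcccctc
Ephb4: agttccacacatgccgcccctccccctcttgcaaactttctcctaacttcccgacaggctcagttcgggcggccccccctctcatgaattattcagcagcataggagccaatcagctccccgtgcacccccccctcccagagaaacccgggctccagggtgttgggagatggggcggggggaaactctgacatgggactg
Epha2: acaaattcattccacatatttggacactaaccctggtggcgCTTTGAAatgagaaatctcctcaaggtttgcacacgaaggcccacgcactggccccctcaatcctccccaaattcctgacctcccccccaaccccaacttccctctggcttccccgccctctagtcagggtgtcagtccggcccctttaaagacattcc

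RefSeq windows of 300 bases, from 250 before to 50 after a start, were found for all 7 genes, with a pair of starts for Efna1. Both strands were searched for CTTTGAT and CTTTGAA, 7-base forms of the TCF motif. Of the 8 windows, the Epha2 window held the only match, a CTTTGAA on the gene's strand that begins 209 bases before the start. Either form was in 8.65% of all 32851 windows. These are descriptions of letters in a short window near the start and no measure of binding.

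Per length of exon, Ephb3 and Ephb4 were the most abundant of the 7 genes, Efnb1 and Efna1 followed, Ephb2 lay below them, and Efnb2 and Epha2 were lowest. Over the 7 libraries Ephb3 had a median of 27.7 CPM per kb and a range from 23.5 to 34.1, and Ephb4 had a median of 24.0 CPM per kb and a range from 19.0 to 26.4. These ranges overlapped, and Ephb3 lay above Ephb4 in 5 of 7 libraries, the exceptions being DSS 3 and DSS 4. Ephb4 lay above Efnb1 in all 7 libraries with no overlap. Efnb1, with a median of 14.5 CPM per kb, and Efna1, with a median of 12.4 CPM per kb, overlapped, and Efnb1 was higher in 6 of 7 libraries.

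Ephb2 had a median of 8.66 CPM per kb and a range from 7.05 to 10.0 that lay above the ranges of Efnb2 and Epha2. Its rank depends on dividing by length, since in plain CPM Ephb2 lay above Efnb1 and Efna1 in every library. The exons of Ephb2 sum to 12608 bases, the longest of the 7 genes, against 6289 bases for Ephb3 and 4640 bases for Ephb4. Efnb2 had a median of 2.54 CPM per kb and Epha2 a median of 1.77 CPM per kb, and their ranges overlapped. When each level was divided instead by the length of 1 principal annotated transcript, an alternative chosen after seeing the data, Ephb3 had a median of 41.6 CPM per kb, Ephb4 of 25.6, Efna1 and Efnb1 of 15.3 each, Ephb2 of 10.0, Efnb2 of 3.63 and Epha2 of 2.12, so Ephb3 and Ephb4 no longer overlapped and Ephb2 kept its place.

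**Figure D1:**
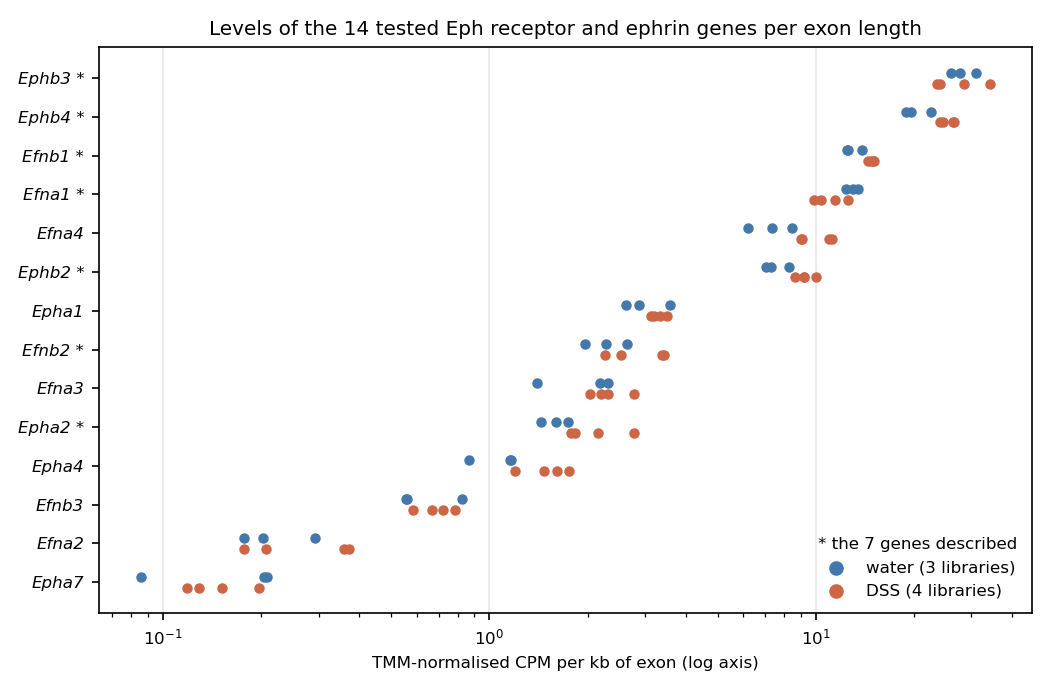
Levels of the 14 tested Eph receptor and ephrin genes in TMM-normalised CPM per kb of exon on a log axis, with 1 point per library (blue water, orange DSS) and the 7 genes described here starred. Ephb3 and Ephb4 lie highest, with medians of 27.7 and 24.0 CPM per kb, and Epha7 lies lowest at 0.152 CPM per kb.

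The other 15 genes of the family show which receptors and ligands were near absent. Of these, 7 had enough counts to test and 8 did not: Epha3, Epha5, Epha6, Epha8, Epha10, Ephb1, Ephb6 and Efna5 had at most 15 counts in any library, or 0.515 CPM. Among EphB receptors, Ephb1 had 0 counts in each water library, against a floor of 3 counts that corresponds to between 0.126 and 0.144 CPM there, and at most 4 counts in a DSS library. Efna4, an A-type ligand, reached a median of 9.02 CPM per kb, between Efna1 and Ephb2, and its range overlapped both. Epha1 stood at a median of 3.20 CPM per kb, above Epha2 in median level, and Epha4 at 1.20. The third B-type ligand, Efnb3, was at 0.666 CPM per kb.

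The comparison of DSS with water asks, by the title of the study, about stem-like features of Paneth cells after inflammation. Of the 7 genes, Ephb2, Ephb4, Epha2 and Efnb1 were higher in every DSS library than in every water library, a pattern seen in 7.4% of all genes tested, and none was lower in every DSS library, against 7.51% of all genes. By estimate, 5 of the 7 lay above 0, against 49.7% of all genes. Efna1 was lower on average, Efnb2 was higher in a pair of DSS libraries, and Ephb3 showed no difference beyond the spread between libraries. No gene passed edgeR's quasi-likelihood test at a Benjamini-Hochberg adjusted p under 0.05, whether among these 7 or among all 17449, so the background is 0% in each direction, while an unadjusted p under 0.05 was reached by 15.7% of them. At an unadjusted p under 0.05, 4 of the 7 were higher and 1 was lower, against 8.36% and 7.35% of all genes. The median log2 change of the 7 was 0.30, against -0.0015 over all genes tested. DESeq2, an alternative, called Ephb2 and Ephb4 higher and none of the 7 lower, against 2.62% of 13223 genes higher and 2.24% lower. These 7 genes were chosen with earlier results of these data known, so the shares are descriptions.

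**Figure D2:**
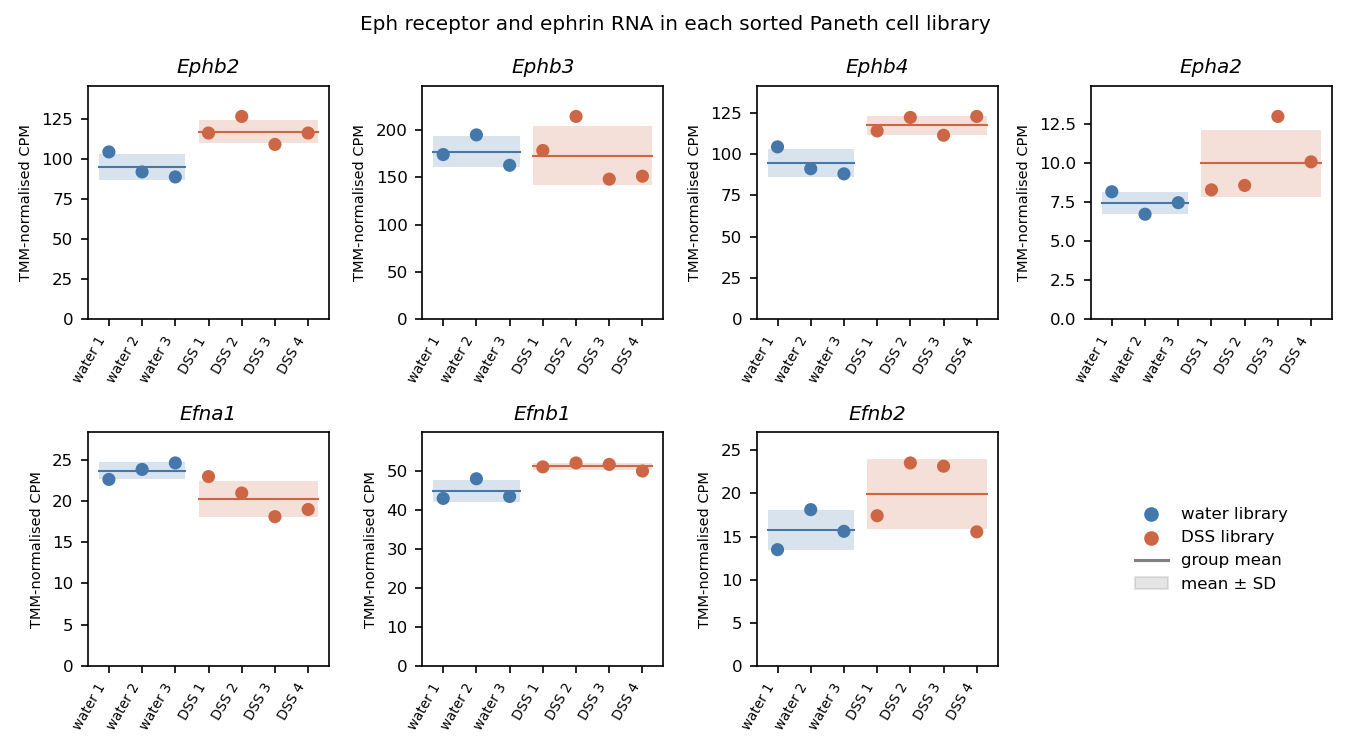
TMM-normalised CPM of the 7 genes in each library (blue water, orange DSS), with the group mean as a line and mean ± SD as a band; axes start at 0. The DSS points of Ephb2, Ephb4, Epha2 and Efnb1 all lie above the water points, while those of Ephb3, Efna1 and Efnb2 overlap them.

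Ephb2 encodes the receptor whose level falls from crypt base to villus and is often used to rank crypt cells by position. Ephb2 (ENSMUSG00000028664.14, chromosome 4 from 136647539 to 136835988, minus strand) was at 104, 92.0 and 88.8 CPM in water 1 to 3 and at 116, 127, 109 and 116 CPM in DSS 1 to 4. The groups did not overlap, although the gap between water 1 and DSS 3 was small beside the spread within either group. Water libraries averaged 95.1 ± 8.26 CPM (SD, n = 3) and DSS libraries 117 ± 7.18 CPM (SD, n = 4). The log2 change was 0.30 ± 0.08 (SE), or 1.23-fold with a 95% interval from 1.09 to 1.39, with an edgeR unadjusted p of 0.00378 and adjusted p of 0.157. Within 10-week mice the log2 change was 0.40 ± 0.13 (edgeR adjusted p = 0.425), where water 3 is the sole control.

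Ephb4 encodes a B-type receptor that preferentially binds the Efnb2 product and is best known from veins. Ephb4 (ENSMUSG00000029710.15, chromosome 5 from 137350109 to 137378669, plus strand) was at 104, 91.1 and 88.0 CPM in water 1 to 3 and at 114, 122, 111 and 123 CPM in DSS 1 to 4. Every DSS library lay above every water library, and water 1 was the highest of the controls, as it was for Ephb2. On the log2 scale Ephb4 differed by 0.32 ± 0.08 (SE), or 1.24-fold with a 95% interval from 1.11 to 1.40 (edgeR unadjusted p = 0.00236, adjusted p = 0.140). DESeq2 gave an adjusted p of 0.0112 for Ephb4 and of 0.0219 for Ephb2, with log2 changes of 0.31 and 0.30. The opposite-strand gene Zan shares 33 bases of exon with Ephb4, and the counting was not set to use strand.

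Because Ephb4 marks veins and Efnb2 arteries, markers of blood vessel cells were measured beside them. Cdh5, Kdr, Tie1 and Flt1 were at most 0.0882 CPM in any library, each with 0 counts in at least 4 of 7 libraries. The other 6 of the 10 endothelial markers had enough counts to test and were detected in every library. Their highest levels were 4.27 CPM for Vwf, 3.32 for Emcn, 3.09 for Tek, 1.65 for Pecam1, 1.17 for Plvap and 0.756 for Egfl7. The 10 markers summed to between 7.97 and 9.42 CPM in water and between 8.20 and 10.8 CPM in DSS. Ephb4 was at 88.0 to 104 CPM in water and 111 to 123 CPM in DSS. Efnb2 was nearer to that sum, at 13.5 to 18.1 CPM in water and 15.5 to 23.5 CPM in DSS. Both the sum and Efnb2 were highest in DSS 2 and DSS 3, where the sums were 10.8 and 10.3 CPM. The part of vessel cells in the Ephb4 and Efnb2 levels was not tested.

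Ephb2 and Ephb4 kept nearly the same proportion in every library. Per kb, Ephb4 was 2.71, 2.69 and 2.69 times Ephb2 in water 1 to 3 and 2.66, 2.62, 2.77 and 2.87 times Ephb2 in DSS 1 to 4. Across the 7 libraries their log2 levels had a Pearson correlation of 0.975 (Spearman 0.893), and Ephb2 was the closest of 9120 candidate genes to Ephb4. The points share their scaling and the difference between groups, and 83 candidates exceeded 0.9 with Ephb4, so the value is a description. Of the other closest genes, Gatad2a, Nacc1 and Kif1c were nearest to Ephb2 (Pearson 0.986, 0.985 and 0.985) and Med15 and Sh2d4a followed Ephb2 for Ephb4 (0.970 and 0.968).

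Ephb3 encodes the receptor that holds Paneth cells at the crypt base. Ephb3 (ENSMUSG00000005958.14, chromosome 16 from 21204755 to 21223305, plus strand) was at 174, 195 and 163 CPM in water 1 to 3 and at 178, 214, 148 and 151 CPM in DSS 1 to 4. The groups overlapped fully, with DSS 2 the highest and DSS 3 the lowest of all libraries. The log2 change was -0.03 ± 0.13 (SE; edgeR adjusted p = 0.931), and the 95% interval, from 0.794-fold to 1.20-fold, includes changes in both directions. Its sign turned under several alternatives. The correlation with Ephb2 was 0.170 and with Ephb4 -0.015 (Pearson, 7 libraries). The genes closest to Ephb3 were Defa25, an alpha-defensin, Tmem234 and Drap1 (Pearson 0.994, 0.987 and 0.985). Reads of alpha-defensins can be split between near-identical copies, so the value for Defa25 is uncertain.

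With Ephb2 and Ephb4 higher and Ephb3 not, the mean share of Ephb3 among the EphB receptors was lower in DSS than in water, although the groups overlapped. Of the summed EphB level per kb, Ephb3 made up 47.4%, 53.5% and 49.9% in libraries water 1 to water 3, and 45.7%, 48.4%, 41.9% and 40.3% in libraries DSS 1 to DSS 4. The Ephb3 share was lowest in DSS 3 and DSS 4, while DSS 2 lay within the water range. The share of Ephb2 averaged 13.5% ± 0.797 over water libraries (SD, n = 3) and 15.0% ± 0.560 over DSS libraries (SD, n = 4). Its value in water 1, 14.2%, lay just below that in DSS 2, 14.3%. Ephb3 was 3.75 ± 0.458 times Ephb2 per kb in water and 2.95 ± 0.357 times in DSS. No test was made of these shares, since they combine genes chosen with results known. DSS 3 and DSS 4 also had the lowest summed Paneth markers, at 122219 and 131514 CPM, and the part of that difference in the Ephb3 share was not tested.

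Epha2 encodes an A-type receptor linked to epithelial junctions. Epha2 (ENSMUSG00000006445.3, chromosome 4 from 141301240 to 141329384, plus strand) was at 8.16, 6.73 and 7.47 CPM in water 1 to 3 and at 8.29, 8.57, 13.0 and 10.1 CPM in DSS 1 to 4. DSS 1 and DSS 2 lay just above water 1, and DSS 3 stood highest. The estimated log2 change was 0.42 ± 0.17 (SE), or 1.34-fold with a 95% interval from 1.03 to 1.74 (edgeR unadjusted p = 0.0335, adjusted p = 0.278). Without DSS 3 the log2 change was 0.27 ± 0.13 (edgeR adjusted p = 0.474). The genes closest to Epha2 over the 7 libraries were Ahcyl2, Rflnb and Gas5 (Pearson 0.984, 0.981 and 0.977). Its counts, from 140 to 378 per library, were the lowest of the 7 genes.

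Efna1 encodes the principal ligand of the Epha2 product. Efna1 (ENSMUSG00000027954.9, chromosome 3 from 89271733 to 89281142, minus strand) was at 22.6, 23.8 and 24.6 CPM in water 1 to 3 and at 23.0, 21.0, 18.1 and 19.0 CPM in DSS 1 to 4. DSS 1 lay among the water libraries and the other DSS libraries lay below all of them. On average the log2 change was -0.23 ± 0.09 (SE), or 0.854-fold with a 95% interval from 0.740 to 0.986 (edgeR unadjusted p = 0.0343, adjusted p = 0.279). With library totals in place of TMM, which moved the median of all genes to 0.23, the log2 change of Efna1 was 0.00079, or -0.23 relative to that median.

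Efna1 and the summed Paneth markers had the same order among the DSS libraries. Of the single markers, Lyz1, Itln1 and Defa24, which were the highest, had this order. Mmp7, Ang4, Pnliprp2, Nupr1, Defa17, Defa30 and Habp2 did not. The 10 summed Paneth markers were at 212757, 167466, 122219 and 131514 CPM in DSS 1 to 4, highest in DSS 1 and lowest in DSS 3 as for Efna1. Whether this bears on the lower Efna1 level was not tested. The genes closest to Efna1 over the 7 libraries were Pdzrn3, Dpp7 and Tcta (Pearson 0.995, 0.987 and 0.986), with 291 candidates above 0.9, the most for any of the 7 genes.

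Epha2 and Efna1 were opposite in direction, and their levels had a Pearson correlation of -0.932 (Spearman -0.929) over the 7 libraries, which share scaling and the group difference. Per kb, Epha2 was 0.141, 0.111 and 0.119 times Efna1 in water 1 to 3 and 0.141, 0.160, 0.281 and 0.208 times Efna1 in DSS 1 to 4. Water 1 and DSS 1 had nearly equal ratios, and DSS 3 and DSS 4 stood apart from all controls. The ratio is independent of the scaling of the libraries.

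Efnb1 encodes an ephrin-B ligand for Ephb2 and Ephb3 products. Efnb1 (ENSMUSG00000031217.8, chromosome X from 99136130 to 99148991, plus strand) was at 42.9, 48.0 and 43.4 CPM in water 1 to 3 and at 51.0, 52.0, 51.6 and 49.9 CPM in DSS 1 to 4. The DSS libraries were close to each other and all above the water libraries, of which water 2 was highest. The log2 change was 0.19 ± 0.06 (SE), or 1.14-fold with a 95% interval from 1.04 to 1.26 (edgeR unadjusted p = 0.0107, adjusted p = 0.199). Genes closest to Efnb1 were Ube3b, Sema4b and Deaf1 (Pearson 0.977, 0.974 and 0.974).

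Efnb2 encodes the ligand of the Ephb4 product and also binds other EphB receptors. Efnb2 (ENSMUSG00000001300.16, chromosome 8 from 8617434 to 8661242, minus strand) was at 13.5, 18.1 and 15.6 CPM in water 1 to 3 and at 17.4, 23.5, 23.2 and 15.5 CPM in DSS 1 to 4. DSS 2 and DSS 3 were above all controls, and DSS 1 and DSS 4 lay within the water range. For Efnb2 the log2 change was 0.34 ± 0.17 (SE; edgeR unadjusted p = 0.0711, adjusted p = 0.362), with a 95% interval from 0.975-fold to 1.65-fold.

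Tuft cell markers were high in the same libraries as Efnb2, DSS 2 and DSS 3, which also shared their isolation day. The part of either in the Efnb2 level was not tested. The 10 markers, of which 9 were tested, summed to 537, 609 and 547 CPM in water 1 to 3 and to 539, 1021, 1026 and 513 CPM in DSS 1 to 4, with Dclk1 at 276 and 285 CPM in DSS 2 and DSS 3 against 145 to 162 CPM in the other libraries. Without DSS 2 and DSS 3, the log2 change of Efnb2 was 0.07 ± 0.14 (edgeR adjusted p = 0.931). These were the highest libraries for Efnb2, so omitting them lowers its estimate whatever the cause. In the same fit Ephb2 was at 0.29 ± 0.09, Ephb4 at 0.33 ± 0.09 and Efnb1 at 0.17 ± 0.07. Over all libraries these genes were at 0.30, 0.32 and 0.19. The genes closest to Efnb2 were Ptpn18, a phosphatase, Junb and Tmem45b (Pearson 0.998, 0.984 and 0.981).

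**Figure D3:**
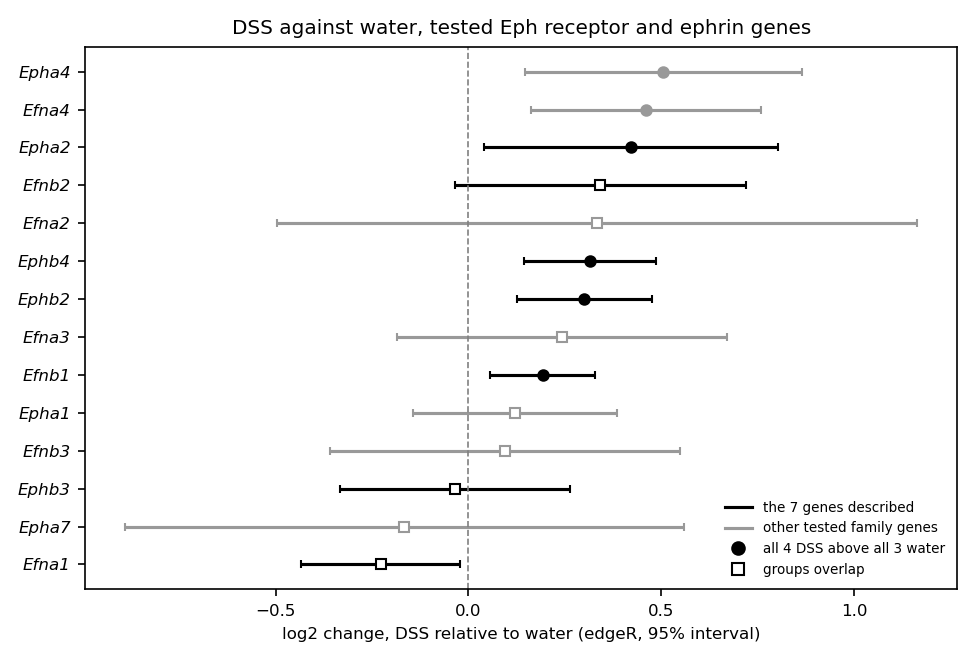
The log2 change with DSS relative to water in the edgeR fit, with 95% intervals, for the 14 tested genes of the family (black the 7 genes described, grey the others; filled circles where all 4 DSS libraries lie above all 3 water libraries, open squares where groups overlap). Of the 14 estimates, 11 lie above 0, and Efna1 lies lowest at -0.23; no gene passed the adjusted test.

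Receptors and ligands of the B class were set against each other because the sorting system works through their contact. Ephb2, Ephb3 and Ephb4 summed to 56.1 ± 3.64 CPM per kb over the water libraries (SD, n = 3) and to 62.1 ± 6.06 CPM per kb over the DSS libraries (SD, n = 4). The summed ephrin-B level (Efnb1 and Efnb2) was 14.4, 16.5 and 14.9 CPM per kb in water 1 to 3 and 17.3, 18.5, 18.3 and 16.7 CPM per kb in DSS 1 to 4. Receptors therefore exceeded ligands 4.06, 3.50 and 3.49 times in water and 3.59, 3.81, 3.06 and 3.57 times in DSS. The groups overlapped, with a log2 ratio 0.07 lower in DSS than in water against SDs of 0.12 and 0.13. The labels give no protein or surface measurement of any of these receptors.

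**Figure D4:**
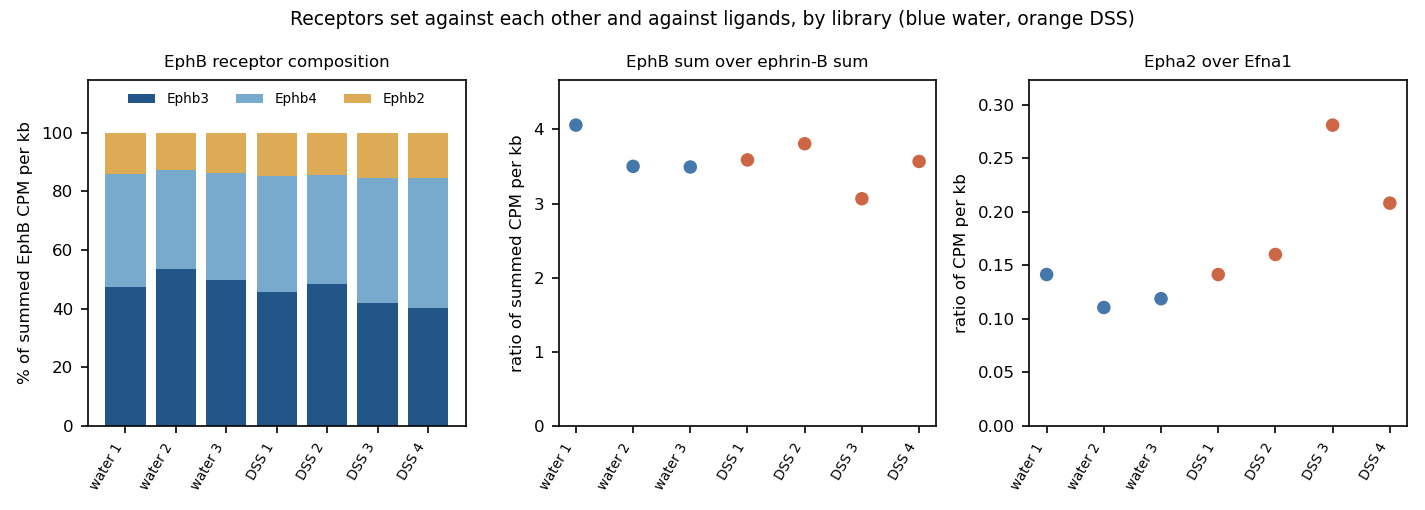
Left, the share of Ephb3, Ephb4 and Ephb2 in their summed CPM per kb in each library; middle, the summed EphB level over the summed ephrin-B level; right, Epha2 over Efna1 per kb (blue water, orange DSS). The Ephb3 share runs from 40.3% to 53.5%, the middle ratio from 3.06 to 4.06 with overlapping groups, and the right ratio is highest in DSS 3 at 0.281.

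Of the 7 other tested family members, 6 had estimates above 0, against 49.7% of all genes, and 2 lay above all water libraries in all DSS libraries, against 7.4% of all genes. Epha4, a receptor that binds both ligand classes, was at 9.41, 9.32 and 6.96 CPM in water 1 to 3 and at 11.8, 14.1, 13.0 and 9.65 CPM in DSS 1 to 4, a log2 change of 0.51 ± 0.16 (SE; edgeR adjusted p = 0.200). Efna4 was at 13.5, 9.95 and 11.7 CPM in water 1 to 3 and at 14.5, 17.6, 18.0 and 14.4 CPM in DSS 1 to 4, a log2 change of 0.46 ± 0.13 (edgeR adjusted p = 0.177, DESeq2 adjusted p = 0.0408). DSS 2 and DSS 3 were highest for both genes, as for Efnb2 and the tuft cell markers, and the part of those markers or of the shared isolation day was not tested. Without those libraries Epha4 was at 0.32 ± 0.17 and Efna4 at 0.30 ± 0.14 (edgeR adjusted p of 0.674 and 0.645). Here too, omitting the highest DSS libraries lowers the estimates whatever the cause. Epha1 was at 0.12 ± 0.12, Efna3 at 0.24 ± 0.19, Efna2 at 0.33 ± 0.37, Efnb3 at 0.09 ± 0.20 and Epha7 at -0.17 ± 0.32, none past the edgeR test.

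Genes that carry Eph and ephrin signals inside the cell were listed next. Of 49 tested adaptors, guanine nucleotide exchange factors, kinases and phosphatases, 0 passed the adjusted edgeR test, and at an unadjusted p under 0.05, 7 were higher and 4 lower, against 8.36% and 7.35% of all genes, with a median log2 change of -0.02. The number lower is near that background. Sdcbp, the syntenin scaffold that binds ephrin-B tails, averaged 225 ± 10.7 CPM over 3 water libraries and 185 ± 6.28 CPM over 4 DSS libraries (SD), a difference of -0.29 ± 0.06 on the log2 scale (edgeR adjusted p = 0.138, DESeq2 adjusted p = 0.00171). Vav2, an exchange factor recruited to Eph receptors, was at 0.26 ± 0.06 (edgeR adjusted p = 0.143) and Cblb, a ubiquitin ligase, at -0.29 ± 0.08 (edgeR adjusted p = 0.164).

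Of 17 tested partners in adhesion and shedding, 0 passed, and 2 were higher and 0 lower at an unadjusted p under 0.05, against 8.36% and 7.35% of all genes, with a median log2 change of 0.01. Ncstn, a subunit of the gamma-secretase that cleaves ephrin-B, was at 0.18 ± 0.06, the integrin Itga6 at 0.18 ± 0.07 and its partner Itgb4 at 0.15 ± 0.08 (edgeR adjusted p of 0.216, 0.289 and 0.425). Adam10, the protease that sheds junction proteins at EphB contacts, was at 0.07 ± 0.05 (edgeR adjusted p = 0.587), a gene chosen here after its value was seen.

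Of 21 tested regulators and crypt targets of beta-catenin and TCF, 0 passed, and 6 were higher and 2 lower at an unadjusted p under 0.05, against 8.36% and 7.35% of all genes, with a median log2 change of 0.10. Sp5, a Wnt-induced repressor, was at 0.42 ± 0.11, Bcl9l, a beta-catenin cofactor, at 0.30 ± 0.08, and Axin2, a Wnt feedback gene, at 0.28 ± 0.08 (edgeR adjusted p of 0.154, 0.165 and 0.187). These genes had the smallest p of the list, and all were higher. Lgr5, 1 of the 2 lower genes of that list, was at -0.70 ± 0.26 (edgeR adjusted p = 0.247). Of the 21 genes, 14 had estimates above 0, against 49.7% of all genes. Outside this list, the TCF targets Ephb2 and Ephb3 were at 0.30 ± 0.08 and -0.03 ± 0.13. The difference between Ephb2 and Ephb3 was not tested.

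**Figure D5:**
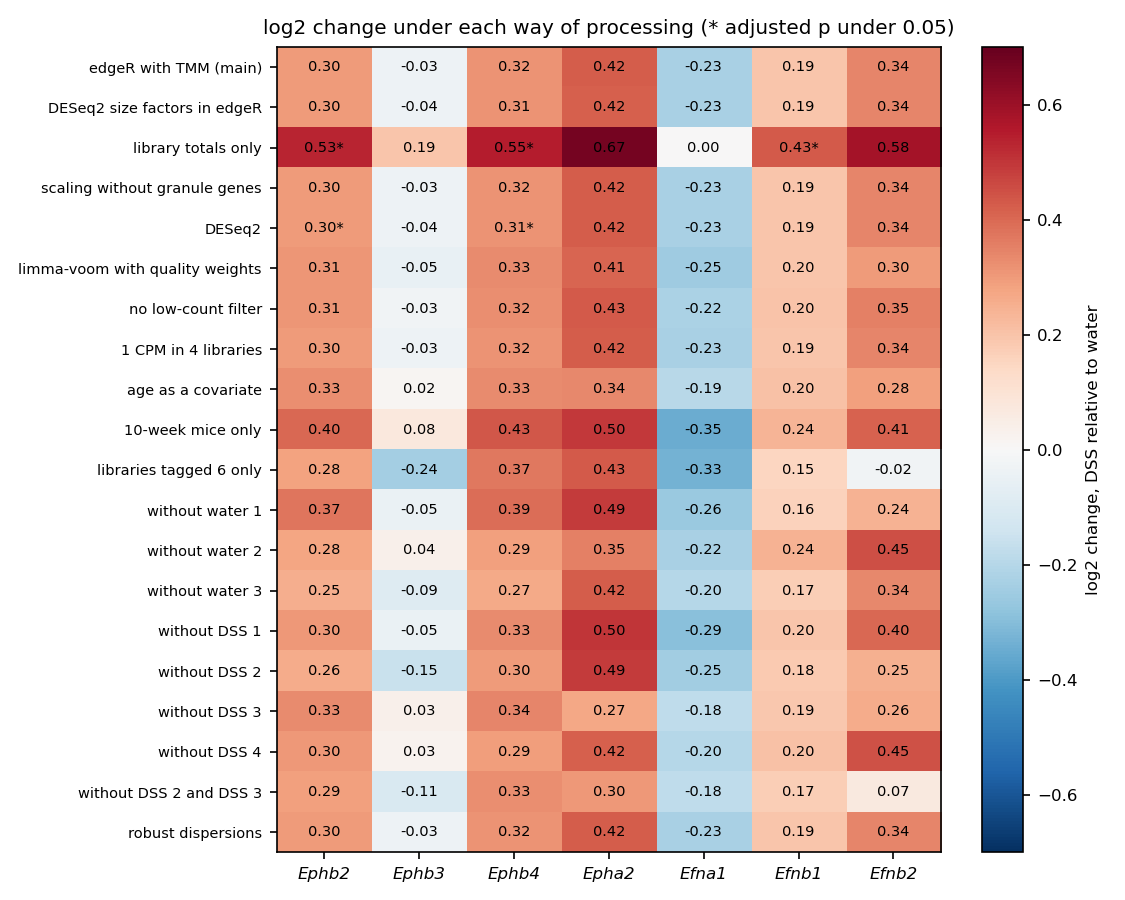
The log2 change of the 7 genes, DSS relative to water, under each way of processing or set of libraries, with an asterisk at an adjusted p under 0.05. Ephb2 and Ephb4 stay between 0.25 and 0.55, Ephb3 crosses 0, and Efnb2 is at -0.02 in libraries tagged 6 and 0.07 without DSS 2 and DSS 3.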

How the data were processed

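Polyadenylated RNA of sorted Paneth cells was sequenced in 3 water and 4 DSS libraries, grouped by the agent in the labels and numbered in accession order. Each deposited file lists unnormalised counts by gene. Per the file headers, featureCounts 1.5.3 counted exons of GENCODE release 15 genes from primary alignments, requiring an overlap fraction of 0.8, without using strand. Mapping with STAR 2.5.3a, another featureCounts version (1.5.2), DESeq2 and the build mm10 appear in the submitters' processing notes. The files' other value used here is the exon length per gene, deposited by the authors. Symbols were matched by identifier for 52403 of 52550 genes.

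The quasi-likelihood test of edgeR 4.0.16 (R 4.3.3) compared DSS with water after filterByExpr, with TMM factors and no covariate. Benjamini-Hochberg adjustment covered 17449 genes at a threshold of 0.05. TMM factors were 0.899 to 0.922 in water and 0.980 to 1.14 in DSS libraries, so they did not overlap between groups. Intervals are 95% from the fit; floors of 3 counts cover counting error only. Levels between genes are TMM CPM per kb. The members and lists were chosen with earlier results of these data known. Besides the 7 genes, the text names tested family genes, the 3 smallest p in each other list, and the 3 genes most correlated with each member (log2 of CPM plus 1, average log2 CPM of at least 3). Alternatives were DESeq2 1.42.0, limma-voom 3.58.1, other scalings and filters, age as a covariate, 10-week mice, libraries whose header names carry the tag 6 (all water libraries and DSS 4), and omission of single replicates. Added after seeing the data were omission of DSS 2 together with DSS 3, robust dispersions and principal transcript lengths. Adam10 was named after its value was seen. The edgeR script was tested on simulated data. It recovered 50.7% of 1.5-fold, 85.1% of 2-fold and 98.5% of 4-fold changes, with 11 false calls among 17449 genes. The estimates of the 7 genes were all smaller than 1.5-fold. All pairs of libraries within a group differed beyond sampling noise, with chi-square over its degrees of freedom from 14.5 upwards.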

Additional observations from a re-analysis of the deposited data

How the results depend on the processing

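Over 19 alternatives for each of the 7 genes, 120 of 133 values kept their direction and side of the threshold, 5 passed it and 8 changed sign. Scaling by library totals alone moved the median over genes to 0.23, and Ephb2, Ephb4 and Efnb1 passed at 0.53, 0.55 and 0.43 (edgeR adjusted p of 0.0350 each), Ephb3 turned to 0.19 and Efna1 to 0.00079; 3 members then passed as higher, against 2107 genes higher (12.1% of those tested) and 28 lower, and 0 members were lower at an unadjusted p. DESeq2 passed 2 members, Ephb2 at 0.30 and Ephb4 at 0.31, with 346 genes higher and 296 lower overall. Ephb3 also turned to 0.016 with age as a covariate, to 0.075 in 10-week mice, and to 0.038 without water 2, 0.034 without DSS 3 and 0.025 without DSS 4; its range without 1 library was -0.15 to 0.038. Efnb2 turned to -0.025 in libraries tagged 6, where DSS 4 is the only DSS library and is assumed to vary like the water libraries; 3 genes were higher and 6 lower there. Without a low-count filter 240 genes were higher and 201 lower. Leaving out 1 library gave 0 to 168 genes higher and 0 to 135 lower, both highest without DSS 1, and 9 higher without DSS 4. Members lower at an unadjusted p numbered 0 with age as a covariate and 0 to 1 without 1 library. Those higher numbered 2 in 10-week mice, where water 3 is the only control and 4.81% of all genes were higher, and 2 without DSS 2 and DSS 3, where 3.98% were higher and 0 members were lower. Of 300 values for 16 other genes, 280 kept direction and side of the threshold, 16 passed it and 4 changed sign: Epha7 turned to 0.059 with library totals, to 0.0037 without water 2 and to 0.038 without water 3 (range without 1 library -0.48 to 0.038), and Efnb3 to -0.0073 without water 3 (range -0.0073 to 0.31). The cause of these moves was not tested. No paired analysis was possible because replicate numbers were given in accession order and pair nothing. Counting error, 1 over the root of the count, reached 8.45% for Epha2 in water against a coefficient of variation of 9.65% between libraries, 4.49% against 4.25% for Efna1 in water, and 2.94% against 1.77% for Efnb1 in DSS, so it is not small beside the spread for these genes, while Ephb1 and the other untested genes are too shallow for a comparison.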
